A study of Hypsibius dujardini with 126 samples.

Results

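Gene expression at the start and at the end of the first day of development was compared in Hypsibius dujardini, a tardigrade (a microscopic freshwater animal), 1 embryo per library. Embryos 79-89, from the 1-cell stage to 9 h, were set against embryos 100-109, from 20 to 29 h, so that both ages came from 1 run of embryo numbers. These are 21 of the 126 single embryos of a time course sampled about hourly. Embryos with under 63405 transcript counts, 10% of the median over all 126, were left out, which kept 9 of 11 embryos at 0-9 h and 7 of 10 at 20-29 h. The early group then held 1 embryo each at the 1-cell stage and at 1, 3, 4, 5, 6, 7, 8 and 9 h, and the late group 1 each at 21, 22, 24, 26, 27, 28 and 29 h. All embryos came from laboratory cultures and were kept at 20 °C, and the labels give no treatment, strain, sex or clutch. The labels' time counts minutes after fertilization, while the growth protocol counts hours from the 2-cell stage, so the time zero is uncertain. Each group is therefore a stretch of development and not a set of embryos of 1 stage.

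A new animal embryo starts with RNA that its mother loaded into the egg. During early cleavage this maternal RNA is degraded, and the embryo's own genome begins to be transcribed, a handover called the maternal-to-zygotic transition. In many animals some of the first zygotic genes are switched on only briefly, while later ones accompany the formation of cell layers and organs. CEL-Seq, the method used here, reads the polyadenylated end of each RNA after linear amplification, with a barcode that names the sample. The file gives transcript IDs without gene names, so transcripts are described by their levels and their timing, and no gene function can be given.

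The kept embryos had 65417 to 1726652 transcript counts (median 559074) at 0-9 h and 337240 to 2156215 (median 869649) at 20-29 h. Reads that did not align made up 42.6 to 69.9% of the reads of an embryo at 0-9 h and 41.2 to 57.7% at 20-29 h. The shallowest was embryo 81 (1 h, 65417 counts), whose mean Spearman correlation with the other 0-9 h embryos was 0.634 across the transcripts tested. For the other 8 this mean was between 0.759 and 0.837. No pair of libraries matched within sampling noise: the closest of 120 pairs, embryos 88 and 89, had a chi-square of 3.88 per degree of freedom. With 1 embryo per hour and nothing to tie embryos to a mother, the p-values rest on the variation among embryos, and clutch mates among them cannot be told apart from unrelated ones.

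Embryos 108 (28 h) and 109 (29 h) went against their labels. Their mean Spearman correlation was 0.832 and 0.823 with the 0-9 h embryos and only 0.614 and 0.662 with the other 20-29 h embryos. The embryo nearest to both was embryo 85 (5 h), at 0.941 and 0.938. The 5 embryos from 21 to 27 h lay the other way, with means of 0.502 to 0.590 to the 0-9 h embryos and 0.703 to 0.773 to their own group. Embryos 110-113 (30 to 33 h) also lay near early embryos, with means of 0.756 to 0.836 to those at 0-9 h. These correlations are across genes, which are not independent replicates, and they share library depth and the most abundant transcripts. Nothing in the labels says why embryos 108 and 109 stand apart, and the cause was not tested. They stay in the main comparison because their labels place them there, and the main results are also given without them. The pair was singled out on these data, for its likeness to the early group. Leaving it out by itself favours larger differences, so counts and p-values without the pair are a description.

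**Figure D1:**
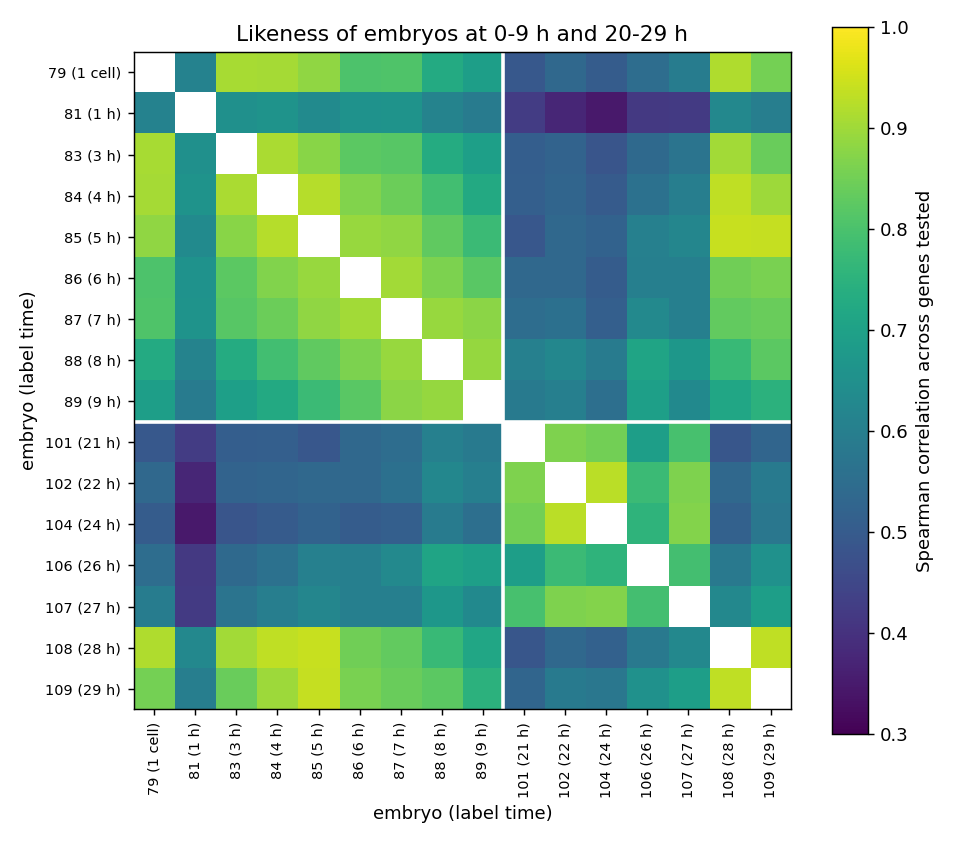
Spearman correlation between each pair of the 16 kept embryos, across the transcripts tested. Embryos are in label order on both axes and white lines part 0-9 h from 20-29 h. The rows of embryos 108 and 109 are bright against the 0-9 h embryos (median of 18 pairs 0.844) and dark against the other 20-29 h embryos (median of 10 pairs 0.580).

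Between 0-9 h and 20-29 h more transcripts rose than fell. Of 6342 transcripts tested, 1029 differed at an adjusted p of 0.05 in edgeR's quasi-likelihood test, which is 16.2% of them. Of these, 789 (12.4%) were higher at 20-29 h and 240 (3.78%) were lower. The median log2 change was 1.50 among those that rose and -1.22 among those that fell, against 0.05 over all transcripts tested. A change of at least 4-fold was fitted for 234 of the risen and 45 of the fallen, and one of at least 32-fold for 27 and 10. With embryos 108 and 109 left out, the numbers were 408 and 403 at 4-fold, nearly even, and 96 and 39 at 32-fold. Among the risen, 54 reached a mean of 1000 CPM (counts scaled to the same transcript total in every embryo) at 20-29 h. Of the fallen, 10 had been at that level at 0-9 h. Scaling to the spike-in RNAs instead left 220 calls, 192 higher and 28 lower, and moved the median log2 change over all transcripts to -0.19. The 4 transcripts named in what follows kept their direction in that fit, and HD_v1_tr_11457 lost its call.

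How far rises outnumbered falls depended on embryos 108 and 109. Without them, 2818 of 6338 transcripts differed (44.5%), with 1540 higher (24.3%) and 1278 lower (20.2%), close to an even split. Of the calls with all 16 embryos, 778 of the 789 risen and 239 of the 240 fallen were made the same way without the pair, and none was made the opposite way. Leaving out single embryos also moved the count, to 520 without embryo 104, 578 without 102 and 609 without 107, and to 1861 without 108 and 1582 without 109. With all 16 embryos, only 10 transcripts (0.158%) had every late embryo above every early one, and 13 (0.205%) had every late embryo below. Without the pair these counts were 290 (4.58%) and 844 (13.3%). Leaving out late embryos for being like the early ones favours more calls and less overlap. The fits with and without the pair share all other embryos, so their agreement is no independent support. In whole embryos, a transcript present in fewer cells and a transcript at a lower level in each cell cannot be told apart.

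**Figure D2:**
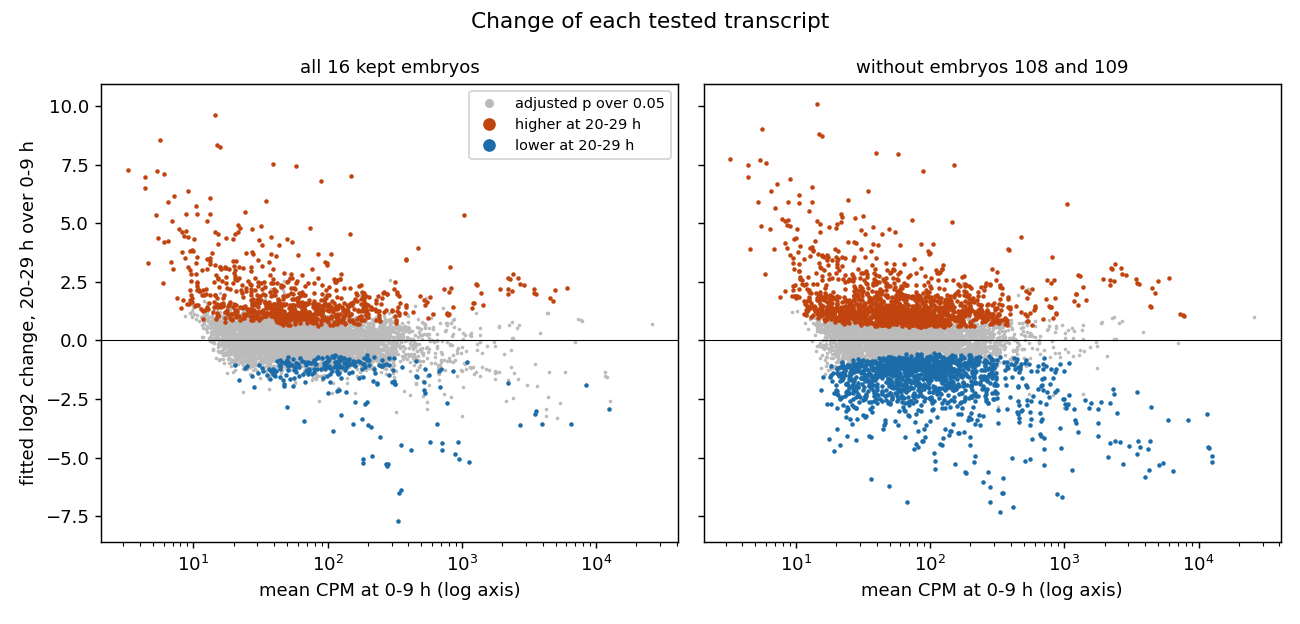
Fitted log2 change from 0-9 h to 20-29 h of each transcript tested (vertical) against its mean CPM at 0-9 h (horizontal, log axis), with all 16 embryos on the left and without embryos 108 and 109 on the right. Transcripts past the threshold are red where higher and blue where lower at 20-29 h; the blue cloud grows from 240 to 1278 transcripts and the red one from 789 to 1540.

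The transcript with the largest fitted rise, HD_v1_tr_09864, went from near the floor to one of the most abundant RNAs of the embryo. It stood between 0.888 and 41.9 CPM in the 9 early embryos. At 20-29 h it stood at 11351 CPM (21 h), 9594 CPM (22 h), 10764 CPM (24 h), 1390 CPM (26 h), 12093 CPM (27 h), 38.5 CPM (embryo 108) and 720 CPM (embryo 109). Embryo 108 thus fell inside the early range, and the other 6 late embryos were all above it. The early mean was 14.4 ± 12.4 CPM (SD, n = 9), and the late one 6564 ± 5535 CPM (SD, n = 7). The fitted log2 change was 9.61 (SE 1.14, edgeR adjusted p = 0.000147), and it was 10.07 (SE 0.75, adjusted p = 6.49e-09) without embryos 108 and 109. In the embryos between the groups its level was 39.9 CPM (10 h), 8.49 CPM (11 h), 318 CPM (12 h), 1672 CPM (14 h) and 3262 CPM (15 h). The level thus stayed within the early range up to 11 h and passed it from 12 h on.

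The largest rise in absolute level was that of HD_v1_tr_01171, which was already expressed in the youngest embryos. It stood between 425 and 2138 CPM at 0-9 h. Late levels were 83899 CPM (21 h), 33838 CPM (22 h), 42807 CPM (24 h), 8789 CPM (26 h), 8806 CPM (27 h), 608 CPM (embryo 108) and 1196 CPM (embryo 109). At 21 h and 24 h it was the single most abundant transcript, with 8.39% and 4.28% of all transcript counts. Both embryos 108 and 109 lay within the early range, and every embryo from 21 to 27 h lay above it. The early mean was 1040 ± 571 CPM (SD, n = 9) against a late one of 25706 ± 30407 CPM (SD, n = 7). This gave a fitted log2 change of 5.37 (SE 0.97, edgeR adjusted p = 0.00148), or 5.84 without the pair (adjusted p = 1.92e-06).

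**Figure D3:**
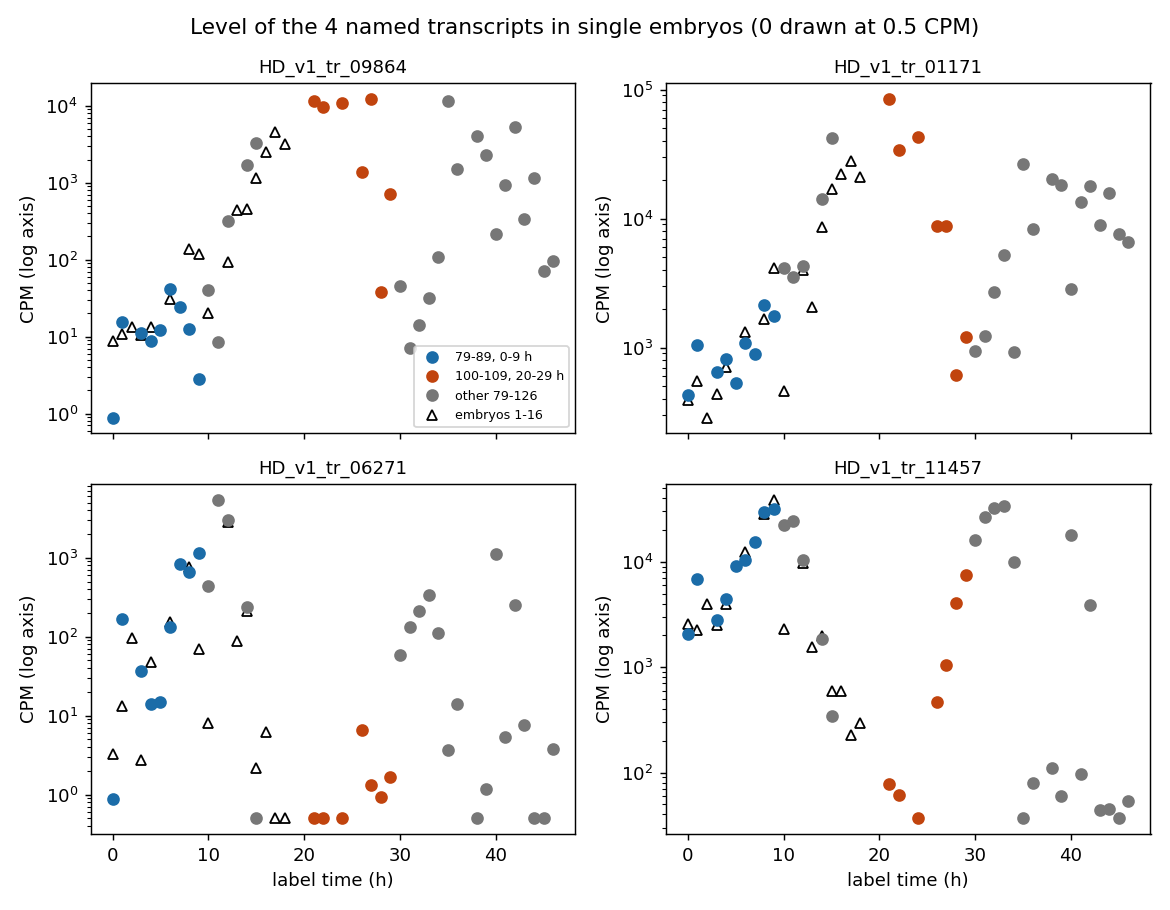
CPM (log axis) of the 4 transcripts with the largest rises and falls in each kept embryo, by label time, with the 1-cell and 2-cell embryos at 0 and a value of 0 CPM drawn at 0.5. Blue marks embryos 79-89, red embryos 100-109, grey the other embryos of 79-126, and triangles embryos 1-16. HD_v1_tr_09864 climbs from under 41.9 CPM in the blue points to between 9594 and 12093 CPM in 4 of the red ones, while HD_v1_tr_06271 peaks at 5373 CPM (11 h) and is at 0 CPM (15 h).

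The 789 risen transcripts together held a large share of the counts from 21 to 27 h. They took 11.0 to 15.4% of transcript counts in the 9 early embryos. Their share was 55.1% (21 h), 60.2% (22 h), 56.9% (24 h), 42.6% (26 h) and 37.9% (27 h), but 12.3% in embryo 108 and 15.5% in embryo 109. The list was chosen on all of these embryos, so the shares describe it and test nothing. The embryos of 10-19 h were not used to choose it. There the share was 20.2% (10 h), 18.8% (11 h), 21.9% (12 h), 36.1% (14 h) and 44.6% (15 h). The step up between 12 and 14 h was the largest between neighbouring kept embryos from 9 to 22 h. Embryos at 13 h and at 16 to 20 h were not kept, so these steps span unequal times and are not rates per hour. The median level of the 789 was 52.4 CPM at 0-9 h and 114 CPM at 20-29 h, and 619 of them had a count in every 0-9 h embryo. Over all 12746 transcript models, tested or not, 5618 had such a count. The filter on low counts asks for a minimum in at least 7 embryos, so transcripts absent at 0-9 h could hardly enter the list. None of the 136 transcripts described later as on at 20-29 h only was tested. How many risen transcripts were new to the embryo therefore cannot be read from this list.

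After 29 h the risen transcripts did not keep a steady share. Embryos from 30 to 34 h, which follow embryos 108 and 109 in number, were at 12.3 to 18.8%. Of these 5, those of 32 and 33 h (16.5% and 18.8%) lay above every early embryo and the other 3 within the early range. Those from 35 to 39 h were at 33.8 to 41.3%, and those from 40 to 46 h at 22.9 to 33.5%. Without embryos 108 and 109 the longer list of 1540 risen transcripts, which these 2 embryos did not help to choose, held 19.8 to 25.6% of counts at 0-9 h and 55.2 to 72.7% from 21 to 27 h. Embryo 108 had 22.3% of its counts on that list and embryo 109 had 25.8%, at or beside the early range.

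**Figure D4:**
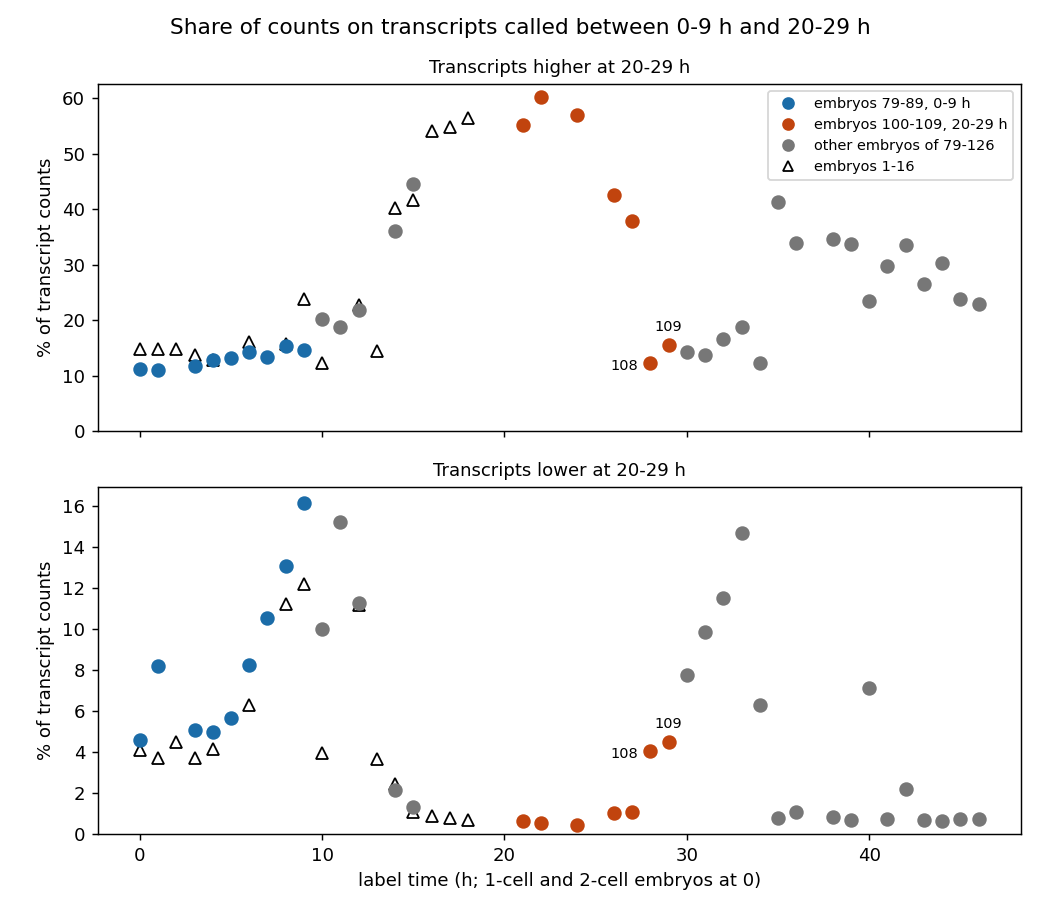
Percent of an embryo's transcript counts on the 789 transcripts that rose (top) and the 240 that fell (bottom), by label time, 1 point per kept embryo. The risen list goes from 11.0-15.4% in blue embryos to 37.9-60.2% in the red embryos of 21 to 27 h; the fallen list first climbs, to 16.1% (9 h), and is down to 2.14% (14 h). Embryos 108 and 109 are numbered.

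The fallen transcripts were not simply high at the start. HD_v1_tr_06271, the largest fitted fall, was nearly absent from the 1-cell embryo, with 1 count (0.888 CPM). It stood at 168 CPM in the shallow 1 h embryo, at 36.3 CPM (3 h), 13.9 CPM (4 h) and 15.1 CPM (5 h), and then at 132 CPM (6 h), 830 CPM (7 h), 662 CPM (8 h) and 1146 CPM (9 h). Between the groups the level was 439 CPM (10 h), 5373 CPM (11 h), 3041 CPM (12 h), 237 CPM (14 h) and 0 CPM (15 h). The late embryos of 21, 22 and 24 h had no count of it, which allows up to 8.90, 2.42 and 3.45 CPM (3 counts of each total), and the count of 0 at 15 h allows up to 23.1 CPM. The other late levels were 6.59 CPM (26 h), 1.32 CPM (27 h), 0.928 CPM (embryo 108) and 1.69 CPM (embryo 109). The groups overlapped, since the 1-cell embryo was as low as the late ones. Its fitted log2 change was -7.72 (SE 1.45, edgeR adjusted p = 0.00199), or -7.32 without embryos 108 and 109 (adjusted p = 0.00194).

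HD_v1_tr_11457 had the largest fall in absolute level. It was abundant from the start and was higher at each later hour from 3 to 9 h. Its early levels were 2065 CPM (1 cell), 6894 CPM (1 h), 2830 CPM (3 h), 4419 CPM (4 h), 9155 CPM (5 h), 10473 CPM (6 h), 15454 CPM (7 h), 29613 CPM (8 h) and 31956 CPM (9 h). From 21 to 24 h it stood at 77.1, 61.3 and 36.8 CPM, then at 469 CPM (26 h), 1046 CPM (27 h), 4031 CPM (embryo 108) and 7469 CPM (embryo 109). By label time it was high again from 30 to 33 h (16259, 26580, 32069 and 33542 CPM) and at 9969 CPM (34 h). It was then at 36.8 to 111 CPM from 35 to 39 h, 18119 CPM (40 h) and 37.4 to 3879 CPM from 41 to 46 h. At 8 h it was the most abundant transcript of the embryo, with 2.96% of its counts, and the embryos of 21 to 27 h were all below the lowest early value. The fitted log2 change of -2.92 (SE 0.98) passed narrowly (edgeR adjusted p = 0.0478) and did not pass in 12 of the 16 fits that left out 1 embryo. Without embryos 108 and 109 it was -4.91 (SE 1.01, adjusted p = 0.000708).

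The summed share of the 240 fallen transcripts also climbed before it dropped, carried by a minority of them. Within 0-9 h, 55 of the 240 were at least 2-fold higher at 7-9 h than from the 1-cell stage to 4 h. Another 35 were at least 2-fold lower and 150 lay between, with a median log2 difference of -0.35. Over all 6342 transcripts tested these numbers were 708, 1126 and 4508, with a median of -0.27, so the median of the 240 lay near that of all. Together the 240 took 4.60% of transcript counts at the 1-cell stage, 8.21% in the shallow embryo 81 and 5.06% (3 h), with 5.00% (4 h) and 5.64% (5 h) next. The share was 8.26% (6 h), 10.6% (7 h), 13.1% (8 h) and 16.1% (9 h), followed by 10.0% (10 h), 15.2% (11 h), 11.2% (12 h), 2.14% (14 h) and 1.32% (15 h). From 21 to 27 h it lay between 0.455% and 1.09%, and in embryos 108 and 109 it was 4.05% and 4.48%, just under the lowest early embryo. The longer list of 1278 fallen transcripts climbed less relative to its level, with 34.5% (1 cell), 31.8% (4 h), 36.3% (7 h) and 38.8% (9 h). It then held 2.68 to 6.93% from 21 to 27 h, and 32.2% and 30.7% in embryos 108 and 109. Of the 240, 198 had a count in every 20-29 h embryo. Over all 12746 transcript models, tested or not, 6806 had one. The filter on low counts favours such transcripts, so the 198 are a description.

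Within 0-9 h, the transcripts lower at 20-29 h took different courses. The 1278 called without embryos 108 and 109 were divided by their mean level at 7-9 h (n = 3 embryos) over that from the 1-cell stage to 4 h (n = 4 embryos). Of these, 127 were at least 2-fold higher at 7-9 h, 395 were at least 2-fold lower, and 756 changed by less than 2-fold. Over all 6342 transcripts tested the corresponding numbers were 708, 1126 and 4508. The shorter list of 240 held 55 of the 127 (43.3%), 149 of the 756 (19.7%) and 35 of the 395 (8.86%). The main comparison thus held a larger share of the class that was higher at 7-9 h than of the other 2 classes. Embryos 108 and 109, at 12.0% and 10.7% of counts for the class of 756 and 16.3% and 12.4% for the class of 395, were within the range of the 0-9 h embryos for both. At 3.98% and 7.57% they were also within that range for the class of 127.

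The class of 127 transcripts was high around 9 h. Its values up to 9 h and from 21 to 27 h chose it and are a description. Its median level was 27.5 CPM at the 1-cell stage, 93.2 CPM (5 h) and 491 CPM (9 h). As a share of all counts it was 1.60% at the 1-cell stage, 6.87% (1 h, the shallow embryo 81), 2.39% (3 h), 4.39% (4 h), 7.98% (5 h), 11.9% (6 h), 17.0% (7 h), 23.0% (8 h) and 26.2% (9 h). Embryos that played no part in forming the class carried it on, with 14.6% (10 h), 22.1% (11 h), 15.1% (12 h), 1.86% (14 h) and 0.433% (15 h). From 21 to 27 h it held 0.102 to 1.00% of counts. The same transcripts held 3.98% in embryo 108, 7.57% in embryo 109, 15.7% (30 h), 20.0% (31 h), 23.3% (32 h) 22.8% (33 h) and 6.71% (34 h), next to 0.214% (35 h), and 12.0% in the embryo of 40 h. By label time, high shares thus occurred again from 30 to 33 h and at 40 h. The embryos of 30 to 33 h are embryos 110-113, which also lay near early embryos by correlation. The values of embryos 108 and 109 lie beside those of the embryos of 4 and 5 h, and the cause was not tested. Embryos 1-16, another run of embryo numbers, had the class at 1.78% (2 cells), 10.3% (6 h), 20.5% (8 h), 19.3% (9 h), 1.71% (10 h), 14.0% (12 h), 2.17% (13 h), 2.01% (14 h) and 0.219% (18 h). The low value at 10 h is that of embryo 9. The value at 13 h is that of embryo 11 and lay beside the 2.01% of 14 h. Both embryos stand apart from their neighbours in other measures.

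The class of 395 transcripts started high, and its median level was lower with each hour from 3 to 10 h. That level was 128 CPM at the 1-cell stage, 102 CPM (5 h), 34.0 CPM (9 h), 24.1 CPM (14 h) and 12.1 to 26.4 CPM from 21 to 27 h. The class of 756 was at 92.7 CPM at the 1-cell stage, 78.0 CPM (7 h) and 53.9 CPM (9 h), and lay at 12.6 to 26.4 CPM from 21 to 27 h. The split itself fixed that the 395 were lower by 9 h and the 756 not by as much, so their courses up to 9 h are a description.

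**Figure D5:**
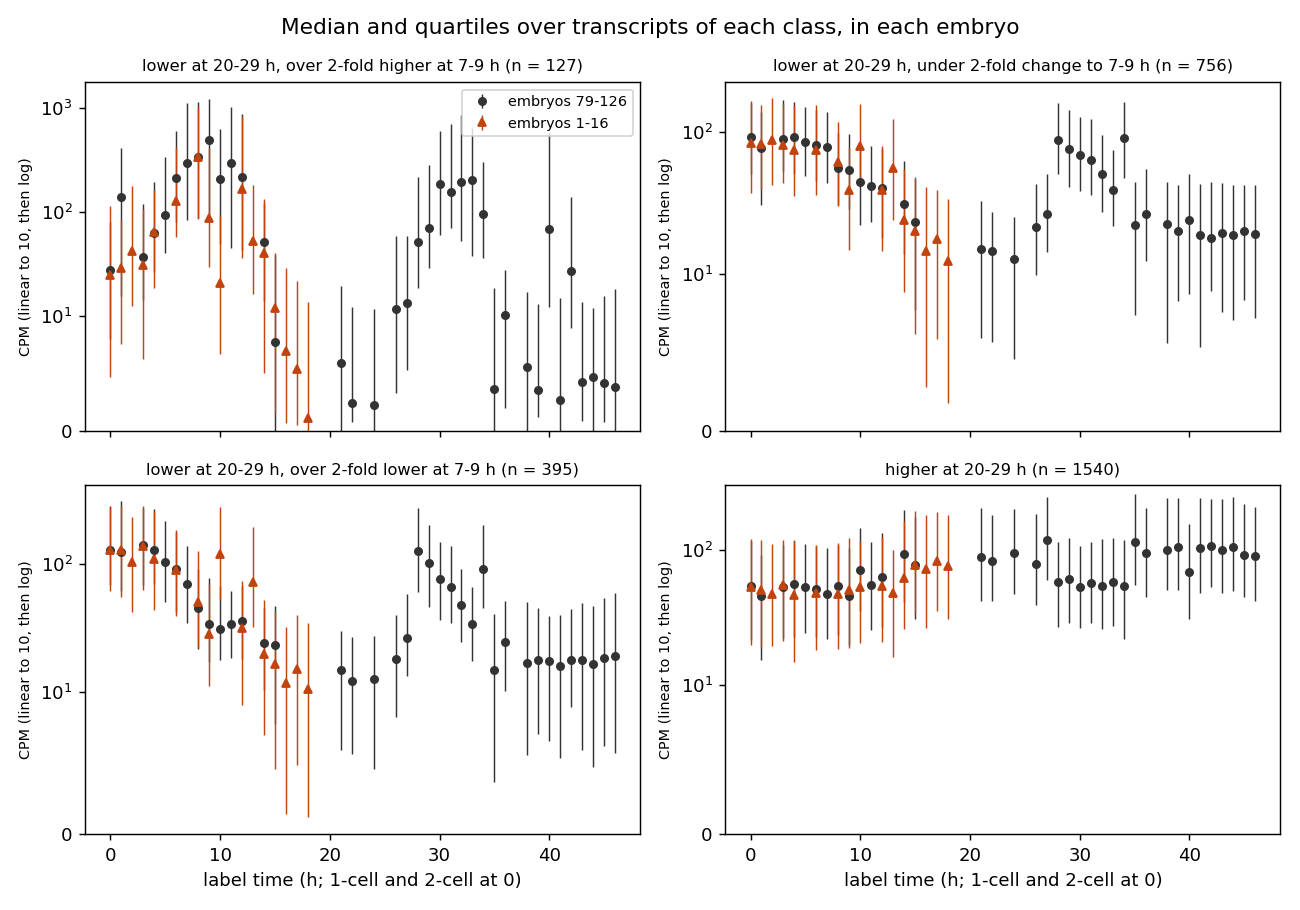
Median (point) and quartiles (bar) of CPM over the transcripts of each class, in each kept embryo by label time, for embryos 79-126 (circles) and 1-16 (triangles); the axis is linear up to 10 CPM and logarithmic above. The class of 127 transcripts peaks at a median of 491 CPM (9 h) and is at 7.71 CPM (15 h), the 395 fall from 128 CPM, and the 1540 risen transcripts move up from a median of 54.1 CPM at the 1-cell stage to 95.4 CPM (24 h).

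Change with label time was also tested among the early embryos alone, in the 8 with a time in hours. Of the 6342 transcripts, 487 rose with time (7.68%) and 381 fell (6.01%) in edgeR's quasi-likelihood test. Among the 240 that were lower at 20-29 h, 48 rose and 17 fell with time within 0-9 h, and among the 789 that were higher, 108 rose and 12 fell. The longer lists called without embryos 108 and 109 gave another balance. Of the fallen transcripts, 1267 were among those tested here, of which 86 rose and 162 fell with time (109 and 276 without embryo 81), and of 1453 risen ones, 215 rose and 21 fell. Rises within 0-9 h thus outnumbered falls in the shorter fallen list and not in the longer one. Without the shallow embryo 81 the counts over all transcripts were 766 (12.1%) and 565 (8.91%). The 7 kept embryos of 1-8 with a time in hours, which share no embryo with this set, gave 148 rises (2.33%) and 14 falls (0.221%). Among the 240, 31 rose there and 2 fell. Within 20-29 h, 484 transcripts rose (7.63%) and 193 fell (3.04%) with label time, which rested on embryos 108 and 109: among the 5 embryos of 21 to 27 h none was called in either direction, with 734 at an unadjusted p under 0.05, and no other tool was run on them.

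Some transcripts were absent at one age and present at the other. The description took under 1 CPM over the pooled counts of one group, and at least 10 mean CPM with a count in at least 50% of embryos in the other. By this rule 136 transcripts were on at 20-29 h only and 7 were lost. Without embryos 108 and 109 there were 157 and 50. None of the 136 and 7 was among the transcripts tested, as the filter on low counts asks for a minimum in at least 7 embryos. With no filter, 1428 transcripts were called, 1198 higher and 230 lower. Since these transcripts were picked for their difference between the same embryos, no test of them is given.

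The 5 kept embryos of 10-19 h divide the interval into 2 steps, and more transcripts were called in the first of them. From 0-9 h to 10-19 h, 615 of 6720 transcripts differed (9.15%), 360 higher and 255 lower. From 10-19 h to 20-29 h, 190 differed (2.83%), 89 higher and 101 lower. The 3 groups held 9, 5 and 7 embryos, so the steps do not rest on equal numbers of embryos. The steps share the middle embryos, so the signed changes of both steps were tested against each other in 1 contrast. They differed for 130 transcripts (1.93%) in edgeR's quasi-likelihood test, with the second step's change the higher for 38 and the lower for 92. A transcript that rose and then fell equally is called here too, so the contrast does not say which step was larger. Without embryos 108 and 109, which left 5 late embryos, the steps held 1331 and 655 calls, each of 6532 transcripts tested. Their signed changes differed for 151 of the 6532 (2.31%). The kept middle embryos were at 10, 11, 12, 14 and 15 h, so hours 16 to 20 have no kept embryo in this run.

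The first part of the interval was covered again by embryos 1-25, with 8 kept embryos at 0-9 h and 8 at 10-18 h. Fewer transcripts were called there, 109 higher (1.42% of 7663) and 24 lower (0.313%). Of the 789 risen transcripts 783 were tested, and 719 of them (91.8%) had a positive fitted change, against 46.0% of all transcripts tested. Past the threshold were 66 of the 783 (8.43%), all of them upward. Of the 240 fallen, 236 were tested, and 187 (79.2%) had a negative fitted change, against 54.0% of all. None of the 236 passed with edgeR under either scaling tried, while 43 had an unadjusted p under 0.05 and a lower level. For the longer lists from the fit without embryos 108 and 109, 88.0% of 1497 risen and 89.9% of 1259 fallen transcripts had the same direction here, and 90 and 16 of them passed.

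Embryos 9 and 11 of that run lay apart from their neighbours as well. The risen list held 12.2% of counts in embryo 9 (10 h) and 14.5% in embryo 11 (13 h), whereas the embryos beside them held 22.8% (12 h) and 40.1% (14 h), and those from 16 to 18 h held 54.1 to 56.5%. Embryo 11 had the fewest transcript counts of embryos 1-16 (250397) and the most reads not aligned (58.0%). Embryo 9 had 4972036 counts and 34.7% not aligned. Leaving out embryos 9 and 11 was chosen on these data, which by itself favours more calls. Without them, 1094 of 7924 transcripts were called in embryos 1-25, 567 higher (7.16%) and 527 lower (6.65%). Among the risen list 307 then passed upward (39.1%) and 2 downward, and among the fallen list 36 passed downward (15.1%). HD_v1_tr_09864 rose in these embryos (log2 change 5.53, SE 1.12, edgeR adjusted p = 0.0283), as did HD_v1_tr_01171 (3.78, SE 0.89, adjusted p = 0.0449). HD_v1_tr_06271 had a fitted change of 1.64 (SE 1.48, adjusted p = 0.58) and HD_v1_tr_11457 one of -2.39 (SE 0.88, adjusted p = 0.153). The sign of HD_v1_tr_06271 differed from that of the main comparison, and its highest level in these embryos, 2807 CPM (12 h), belongs to the later group here.

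Whether the step from 0-9 h to 10-19 h differed between the runs was tested as an interaction. It was called for 0 of 8385 transcripts with edgeR, with 283 at an unadjusted p under 0.05. With RLE scaling 0 were called and 281 had such a p, and without embryos 9 and 11 there was 1 call. This does not show that the runs were alike.

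Measures of the whole library were compared by exact permutation over all 11440 splits of the 16 embryos, 2-sided, with p adjusted over the 4 measures. At an equal depth of 63405 counts, the early embryos had 6419 ± 252 transcripts detected (SD, n = 9), and the late ones 6127 ± 620 (SD, n = 7; exact p = 0.215, adjusted 0.286). Without embryos 108 and 109 the late mean was 5849 ± 488 (n = 5; exact p = 0.015, adjusted 0.030), with the embryos of 21, 22 and 24 h at 5471, 5492 and 5580. The 10 most abundant transcripts took 13.2 ± 2.76% of counts at 0-9 h and 18.4 ± 5.82% at 20-29 h (exact p = 0.0315, adjusted 0.126), or 21.2 ± 4.11% without the pair (exact p = 0.002, adjusted 0.00799). The embryos of 21, 22 and 24 h lay outside the early range in both measures. Those of 26 and 27 h, with 6121 and 6580 transcripts and 16.7% and 17.2%, lay inside it, and with all 16 embryos neither adjusted p passed. Embryos 108 and 109 were left out for their likeness to the early group. The permutation p-values without them therefore do not hold as tests.

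Transcript counts per spike-in count, a measure of RNA per embryo relative to added synthetic RNA, gave no difference that passed. On the log10 scale they were 2.20 ± 0.131 (SD, n = 9) and 2.25 ± 0.106 (SD, n = 7), with an exact permutation p of 0.506. Without embryos 108 and 109 the late mean was 2.20 ± 0.0634 (n = 5). Total counts did not pass either (exact permutation p = 0.169). The biological coefficient of variation fitted by edgeR was 38.8% among the 0-9 h embryos and 58.4% among the 20-29 h embryos, or 46.5% without embryos 108 and 109. Within 1 cell to 4 h it was 32.6% and within 5 to 9 h 31.0%, both below the value for the whole of 0-9 h.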

How the data were processed

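The measurements are CEL-Seq counts of polyadenylated RNA in single whole embryos. Raw read counts per transcript model were deposited by the authors, not normalized. Per the submitters' processing notes, the tools were HTSeq 0.5.4p3, Bowtie2 2.1.0 and CASAVA 1.8. Which build and annotation served is not given in the sources used here. Listed are 12746 transcript models, 92 spike-ins and 5 summary rows, of which the last 2 kinds entered neither tests nor library sizes. Between 5.69 and 8.82% of an embryo's reads fell outside all transcript models. Molecular identifiers are no part of the counts, so counting errors treat reads as if they were independent.

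Groups follow the embryo numbers and times of the labels, which name no batches and no replicate numbers. The main test was edgeR 4.0.16 (R 4.3.3) with TMM factors, its default filter on low counts and the quasi-likelihood test on the 16 kept embryos, with Benjamini-Hochberg adjusted p-values compared with 0.05. Trends used label hours as a slope over the transcripts of the main comparison. Named IDs are those with the largest rise and fall in log2 change and in mean CPM, among called transcripts with at least 50 CPM in the higher group. Members, lists and rules were chosen with earlier results of these data known. Splitting the fallen transcripts by their course within 0-9 h, and leaving out embryos 81, 108, 109, 9 and 11, was chosen after seeing these data, as were RLE factors in the interaction. Alternatives were RLE factors, spike-in scaling, DESeq2 1.42.0, limma 3.58.1 on log2 CPM, other filters and sets of embryos, a depth covariate, thinning, a test against a 1.5-fold change and leaving out each embryo. Detected transcripts were counted after thinning without replacement. On simulated counts with the gene-wise dispersion of these embryos, edgeR recovered 45.8% of 2-fold and 95.8% of 4-fold changes between 0-9 h and 20-29 h. There were 4 false calls among 6199 transcripts. The median dispersion simulated was 0.153, while the common dispersion fitted to the data was 0.238. Calls of at least 4-fold went from 234 higher and 45 lower to 408 and 403 without embryos 108 and 109. The simulated rates may therefore not hold for the real groups. Figures used Python 3.11.15 and matplotlib 3.10.9. Gene lists and cell type markers were not applied, since no ID is paired with a name.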

Additional observations from a re-analysis of the deposited data

Results flagged for a closer look

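Of 18 groups of values checked for a single embryo far from the others, 3 had one, and chance gives about 1 in 20. In embryo 81 (1 h), the shallowest kept, 69.9% of reads did not align, against 56.1% in the next highest early embryo and 42.6% in the lowest. The ratio of transcript to spike-in counts was 279 in embryo 108 (28 h), with the next highest late embryo at 191 and the lowest at 141. HD_v1_tr_06271 stood at 6.59 CPM in embryo 106 (26 h), against 1.69 CPM in the next highest late embryo and 0 CPM in the lowest.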

How the results depend on the processing

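Of 239 values under other settings, 189 kept their direction and side of the threshold, or stayed within 1.5 times the main count. The 1029 calls of the main comparison became 220 with spike-in scaling, 1553 with DESeq2 (1030 higher, 523 lower), 383 with all kept embryos of the series in the fit (369 and 14), 388 in the test against a 1.5-fold change (349 and 39), and 195 of 1185 transcripts tested after thinning. They became 2818 without embryos 108 and 109 and 2933 without 81, 108 and 109, and ranged from 520 to 1861 with 1 embryo left out. The split moved with limma from 76.7% to 53.1% higher, of 1122 calls, and with no embryo left out to 754 higher and 407 lower. HD_v1_tr_11457 lost its call in 20 settings, with an adjusted p in edgeR of up to 0.0983 with 1 embryo left out. HD_v1_tr_06271 stayed called in the 13 fits without 1 embryo in which it passed the filter on low counts. The difference in detected transcripts, -292 at 20-29 h, ranged from -411 to -183 with 1 embryo left out and was -570.5 without 108 and 109. The difference in the share of the 10 most abundant transcripts ranged from 4.02 to 6.44 percentage points, with 9 of 16 exact permutation p-values over 0.05. The log10 difference in counts per spike-in turned to -0.0039 without 108 and 109. Without embryos 9 and 11, calls in embryos 1-25 were 1094, those shared with the main comparison 343 (against 66, and 107 with RLE), and the interaction had 1 call. Lost transcripts numbered 19 at 5 CPM, 1 at 20 CPM and 50 without 108 and 109. The causes of these shifts were not tested. Leaving out the 1-cell and 2-cell embryos gave no further fit, since the 2-cell embryo was under the depth minimum. No paired analysis was possible because the labels give no replicate numbers that pair embryos across ages. Depth limits the lowest transcripts most, as thinning removed most of them from the test.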
